A study of Homo sapiens with 4 samples.

Results

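Small non-coding RNAs of the splicing and RNA-processing machineries were followed in MOLM-13 cells, a line from a human acute myeloid leukaemia. The genes were chosen by the form of their symbol. The forms were those used for U-type small nuclear RNAs (RNU followed by a digit, or RNVU1), Y RNAs (RNY), 7S RNAs (RN7S) and vault RNAs (VTRNA). RMRP and RPPH1 were added. The form alone does not make a gene a small nuclear RNA, and the RNU105 genes were kept as a class apart. The rule found 44 of the 27800 symbols in the table: 13 U1 genes, 1 U2, 2 U4, 5 U5, 1 U6, 4 of the minor spliceosome, 1 U7, 1 7SK, 4 7SL, RMRP, RPPH1, 4 Y, 4 vault and 2 RNU105 genes. Cells had been transduced with a lentivirus for CRISPR-Cas9 that was labelled EV in the control group or carried sgKAT6A, directed at the histone acetyltransferase gene KAT6A. There were 2 RNA-seq libraries of each kind, numbered 1 and 2 by their titles, and the question, per the series' design text, was what loss of KAT6A does to gene expression in these cells. The sources used here do not give what EV holds, the guide, the harvest time, or whether cells were a clone or a pool. The labels do not say that libraries of a group came from separate cultures, so a p-value measures the spread between these libraries, which may be technical.

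U1, U2, U4, U5 and U6 small nuclear RNAs are the RNA cores of the major spliceosome, which removes introns from messenger RNA precursors; U11, U12, U4atac and U6atac serve a rare class of introns in the same way. U6, U6atac, 7SK, 7SL, the Y and vault RNAs and the RNAs of RNase P and RNase MRP are made by RNA polymerase III, whereas the other U RNAs are short capped transcripts of RNA polymerase II. By these known polymerases 25 genes were assigned to Pol II and 16 to Pol III, and RN7SL832P, RNU105B and RNU105C were assigned to neither. None of these RNAs ends in a long poly(A) tail, and most are folded, modified and bound in a protein particle.

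Sequences are shown for the genes that the results turn on, from GENCODE 29 (GRCh38), where 40 of the 44 genes were found by name. The first set gives spliceosomal RNAs. Capitals mark ACTTACCTG in U1, which pairs with the 5′ splice site, GTAGTA in U2, which pairs with the branch point, AAGGAGAG in U6atac, which pairs with the 5′ splice site of minor introns, and the site for the Sm protein ring in U1 (AATTTGTGG), U2 (ATTTTTGG), and U4 and U12 (AATTTTTGA).
RNVU1-18: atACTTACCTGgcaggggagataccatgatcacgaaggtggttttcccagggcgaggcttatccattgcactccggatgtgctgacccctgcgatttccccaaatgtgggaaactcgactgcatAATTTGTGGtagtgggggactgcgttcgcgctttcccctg
RNU2-1: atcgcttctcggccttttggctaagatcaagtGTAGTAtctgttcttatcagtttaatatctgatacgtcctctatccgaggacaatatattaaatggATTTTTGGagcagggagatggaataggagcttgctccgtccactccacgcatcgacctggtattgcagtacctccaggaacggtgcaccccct
RNU4-1: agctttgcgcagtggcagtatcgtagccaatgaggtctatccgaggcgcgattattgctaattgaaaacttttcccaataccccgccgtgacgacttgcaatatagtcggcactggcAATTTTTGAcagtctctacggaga
RNU12: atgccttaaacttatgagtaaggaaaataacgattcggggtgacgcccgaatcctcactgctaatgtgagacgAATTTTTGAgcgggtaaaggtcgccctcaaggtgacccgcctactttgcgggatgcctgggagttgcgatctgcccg
RNU6ATAC: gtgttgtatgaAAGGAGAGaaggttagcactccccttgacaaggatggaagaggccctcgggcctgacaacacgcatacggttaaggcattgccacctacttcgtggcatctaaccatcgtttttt

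RNVU1-18 lies at chr1:143729407-143729570 on the minus strand and its letters are those of 6 named U1 genes and pseudogenes (RNU1-1, RNU1-2, RNU1-3, RNU1-4, RNU1-27P and RNU1-28P), which were not analysed here under their own symbols. RNU6-1 is likewise identical to RNU6-2, RNU6-9 and 4 other named copies. RNU2-1, at chr17:43233787-43233977 on the minus strand within an intron of CCDC200, has 10 identical annotated transcripts. Reads from identical copies cannot be told apart, so the values of RNVU1-18, RNU2-1 and RNU6-1 stand for whichever copies the authors' annotation gave to those symbols. RNU12 lies at chr22:42615244-42615393 and RNU6ATAC at chr9:134164439-134164564 (minus strand). Of the 40 genes with coordinates, 33 overlap no protein-coding gene, 6 lie in an intron of one, and RNU7-1 overlaps an exon of C12orf57. Among 5576 GENCODE transcripts of 100 to 200 bases, counting both strands, ACTTACCTG was in 0.968%, AATTTGTGG in 1.291%, GTAGTA in 4.089%, ATTTTTGG in 1.327%, AATTTTTGA in 1.004% and AAGGAGAG in 0.753%. That set takes in the U1, U2, U4, U12 and U6atac genes themselves, so these are not shares among unrelated transcripts. ACTTACCTG was in 7 U1 genes and AATTTGTGG in 8.

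The second set shows a U1 gene that differs by a single base and 2 RNAs outside the spliceosome. In RNVU1-7 the capital marks the base that differs from RNVU1-18. In the 5′ part of RN7SK capitals mark GATC, a repeated element of the 7SK 5′ stem that HEXIM proteins bind. In RNY1 they mark GGCTGGTCC and GACTAG in the end stem bound by Ro60, where GACTAG pairs with bases inside GGCTGGTCC.
RNVU1-7: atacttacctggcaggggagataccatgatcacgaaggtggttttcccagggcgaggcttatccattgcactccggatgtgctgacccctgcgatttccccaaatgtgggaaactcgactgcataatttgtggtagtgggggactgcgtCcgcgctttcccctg
RN7SK: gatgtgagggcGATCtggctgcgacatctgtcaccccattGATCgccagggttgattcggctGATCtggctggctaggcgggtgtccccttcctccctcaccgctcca
RNY1: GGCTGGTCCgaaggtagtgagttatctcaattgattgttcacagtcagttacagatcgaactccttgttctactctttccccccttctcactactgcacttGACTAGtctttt

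With positions counted from 1 at the 5′ end, RNVU1-7 (chr1:148038753-148038916, minus strand) differs from RNVU1-18 by T150C. RNU4-1 and RNU4-2 differ by C37T, G88A, C99A and C113T. RN7SK lies at chr6:52995621-52995948 and RNY1 at chr7:148987136-148987248 (minus strand). GATC was in 37.285% of the same GENCODE transcripts of 100 to 200 bases, GGCTGGTCC in 2.098% (both strands) and GACTAG in 9.505%. Some rows of U1, U4 and 7SL are near-identical to each other, and for these the split of reads between rows is uncertain. The U1 rows compared with RNVU1-18 ran from 79.88% identity (RNVU1-4) to 99.39% (RNVU1-7).

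All values are TPM, a transcript's share of its library after scaling to gene length, which keeps no read depth, and in bulk RNA fewer cells carrying an RNA and less of it per cell cannot be told apart. KAT6A stood at 16.2 and 16.7 TPM in EV libraries 1 and 2 and 12.2 and 10.8 TPM in sgKAT6A libraries 1 and 2. Its log2 difference was -0.48 ± 0.13 (SE), with an adjusted p of 0.784 in limma. All 8 myeloid markers had a mean of at least 1 TPM, with sums of 7918 and 9140 TPM in EV and 11935 and 10680 TPM in sgKAT6A. LYZ made up most of these sums (7060 and 8068, then 10975 and 9500 TPM), while FLT3 was lower in sgKAT6A (61.0 and 59.4, then 46.2 and 42.9 TPM). The 8 markers of other cell types summed to 72.5 and 250.2 TPM in EV and 242 and 141 TPM in sgKAT6A. Of these, only HBB (38.6 to 192 TPM) and PECAM1 (32.8 to 77.9 TPM) reached a mean of 1 TPM, MS4A1 was listed at 0 in all 4 libraries, CD3E, GATA1 and EPCAM stayed under 0.3 TPM, and COL1A1 reached at most 0.652 TPM.

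Libraries of the same group differed widely in these RNAs. Together the 44 genes took 1.52% and 1.33% of all TPM in EV libraries 1 and 2, 1.25% in sgKAT6A library 1 and 5.67% in sgKAT6A library 2. Without the 7SL genes the sums were 1281 and 4467 TPM in EV and 3761 and 24802 TPM in sgKAT6A. Of the 12 RNA classes listed above 0 in any library, 10 were highest in sgKAT6A library 2 and 9 were lowest in EV library 1, with EV library 2 and sgKAT6A library 1 between them. Y and vault RNAs were the classes highest elsewhere. The plot of class sums shows this order for each class.

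**Figure D1:**
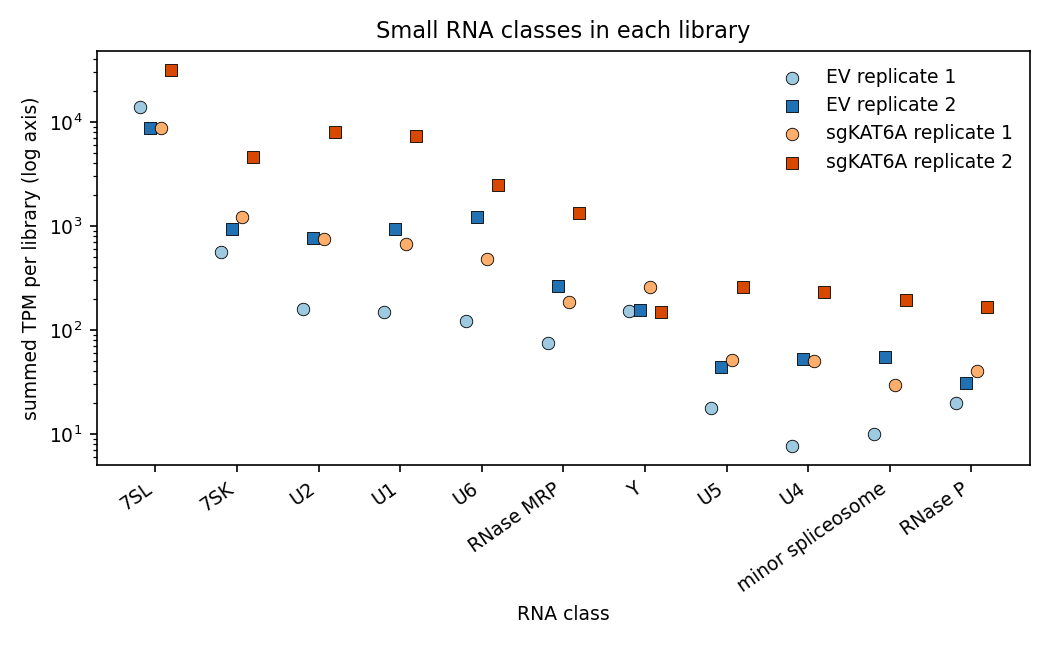
Summed TPM (log axis) of each RNA class in each of the 4 libraries, 1 point per library. For U1, U2, U4, U5, U6, the minor spliceosome, 7SK, RNase MRP and RNase P the EV library 1 point is lowest and the sgKAT6A library 2 point highest, whereas the 4 Y RNA points lie between 150 and 259 TPM. Vault RNAs, at 0 in 2 libraries, are not drawn.

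U1 recognises the 5′ splice site. RNVU1-18, the most abundant U1 row, was listed at 120 and 838 TPM in EV libraries 1 and 2 and 577 and 6658 TPM in sgKAT6A libraries 1 and 2. EV library 1 was lowest, and the sgKAT6A values lay on both sides of EV library 2, so the groups overlapped. The log2 difference was 2.62 ± 1.60 (SE; limma adjusted p = 0.784). RNVU1-7, which differs from it by a single base, was at 2.73 and 44.1 TPM in EV and 26.9 and 421 TPM in sgKAT6A, the same order of libraries. RNVU1-15 (4.94 and 12.2, then 11.1 and 99.7 TPM) and RNVU1-19 (3.32 and 15.6, then 16.5 and 73.6 TPM) were also lowest in EV library 1 and highest in sgKAT6A library 2. RNVU1-4, the U1 row least like RNVU1-18 of the 9 compared (79.88% identity), departed from this order. It stood at 18.2 and 10.5 TPM in EV and 9.30 and 17.2 TPM in sgKAT6A, highest in the library where RNVU1-18 was lowest. RNVU1-11, at 0 in both EV libraries, had 3.74 and 23.5 TPM in sgKAT6A. RNVU1-14 was at 0 and 5.25 TPM in EV and 9.30 and 86.0 TPM in sgKAT6A. The other 4 U1 rows above 0 reached at most 11.5 TPM, and RNVU1-17 and RNVU1-20 were listed at 0 throughout.

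U2 pairs with the branch point and is given here by 1 gene. RNU2-1 was at 159 and 764 TPM in EV and 754 and 7982 TPM in sgKAT6A. EV library 2 and sgKAT6A library 1 were nearly equal (a ratio of 0.987), while sgKAT6A library 2 was 10.5-fold above the next highest library and EV library 1 was 4.74-fold below sgKAT6A library 1. The log2 difference between groups was 2.81 ± 1.45 (SE; limma adjusted p = 0.784), and the groups overlapped. On the same scale the 2 EV libraries differed from each other by 2.26 and the 2 sgKAT6A libraries by 3.40.

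U4 escorts U6 into the spliceosome and U5 holds the exons. RNU4-1 was at 3.80 and 30.3 TPM in EV and 23.0 and 129 TPM in sgKAT6A. RNU4-2, its partner copy, was at 3.88 and 22.8 TPM in EV and 27.9 and 102 TPM in sgKAT6A. Both were lowest in EV library 1, and only RNU4-2 had both sgKAT6A libraries above both EV libraries. Of the 5 U5 genes, RNU5A-1 (6.72 and 10.5, then 12.6 and 84.9 TPM), RNU5F-1 (4.49 and 13.2, then 25.9 and 70.0 TPM), RNU5B-1 (0 and 7.84, then 8.04 and 71.9 TPM) and RNU5D-1 (0 and 0, then 5.16 and 24.0 TPM) had no overlap between groups. RNU5D-1 had the smallest unadjusted p of all 35 genes tested (0.008 in limma), with a log2 difference of 3.63 ± 0.74 (SE) and an adjusted p of 0.784. Because it was at 0 in both EV libraries, that difference is set by the pseudocount, and was 6.81 with 0.1 and 1.78 with 5. RNU5E-1 went the other way, at 6.69 and 12.9 TPM in EV and 0 and 8.45 TPM in sgKAT6A.

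U6 sits at the catalytic centre and is the Pol III member of the major spliceosome. RNU6-1 was at 123 and 1221 TPM in EV and 486 and 2477 TPM in sgKAT6A. EV library 2 was above sgKAT6A library 1, so the groups overlapped, and sgKAT6A library 2 was 2.03-fold above EV library 2 where the same step was 10.5-fold for RNU2-1. The log2 difference was 1.497 ± 1.44 (SE; limma adjusted p = 0.795), and it was -0.15 without EV library 1.

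In the minor spliceosome the 4 RNAs did not share 1 order of libraries. RNU12, which pairs with the branch point of minor introns, was at 3.67 and 27.2 TPM in EV and 20.3 and 139 TPM in sgKAT6A, the order seen for RNU2-1. RNU6ATAC, the U6 counterpart, was at 4.35 and 28.4 TPM in EV and 4.72 and 29.7 TPM in sgKAT6A. It was thus high in both libraries numbered 2 and low in both numbered 1, with a log2 difference between groups of 0.08 ± 1.23 (SE; limma adjusted p = 0.988). The ratio of RNU12 to RNU6ATAC was 0.845 and 0.957 in EV and 4.304 and 4.67 in sgKAT6A. This was 1 of several such ratios computed, and in the libraries numbered 1 it rests on RNU6ATAC at only 4.35 and 4.72 TPM. RNU4ATAC was at 2.11 and 0 TPM in EV and 4.60 and 14.5 TPM in sgKAT6A, and RNU11 was above 0 only in sgKAT6A library 2, at 11.975 TPM. RNU7-1, the RNA of histone mRNA 3′ processing, was listed at 0 in all 4 libraries.

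**Figure D2:**
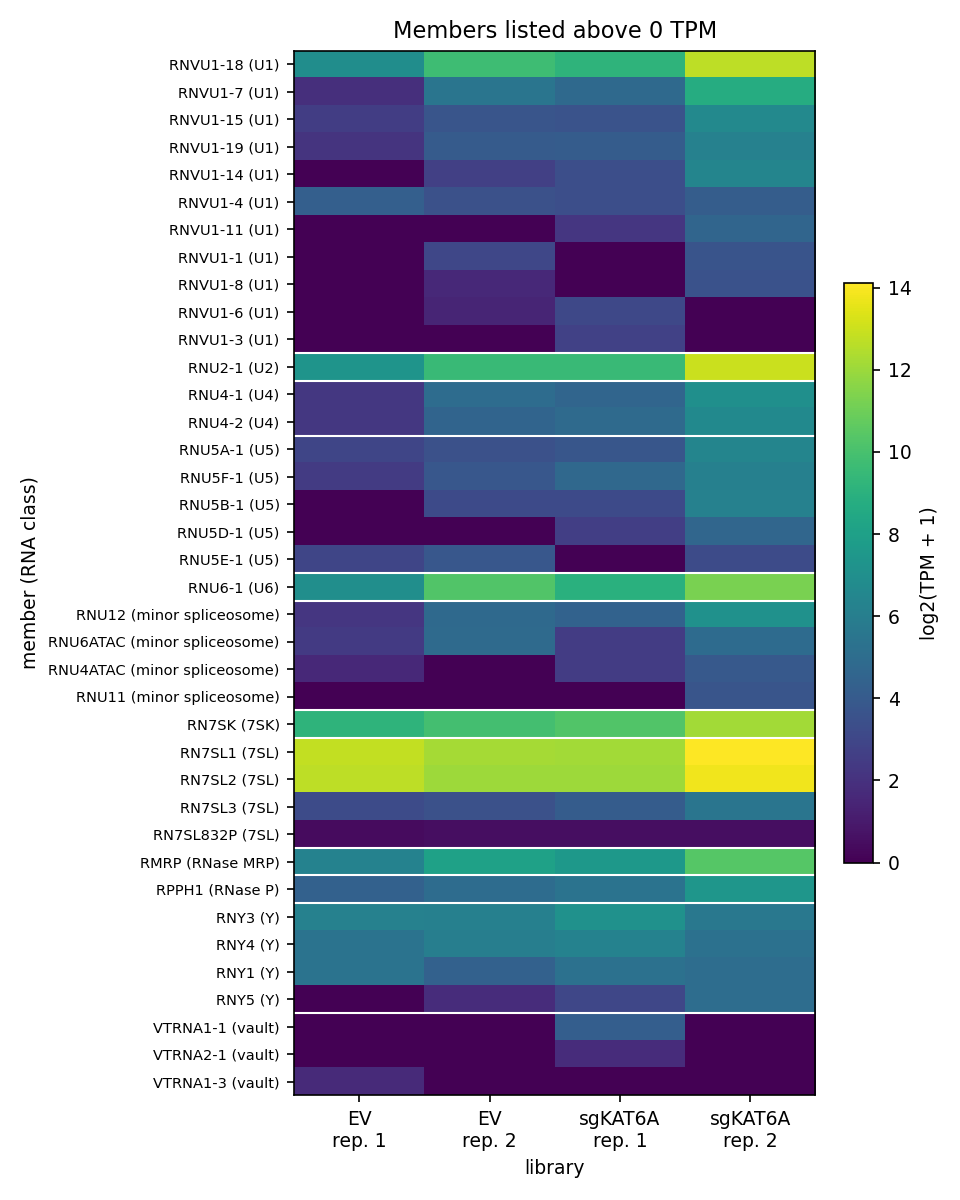
Level of each of the 38 genes listed above 0 in any library, as log2(TPM + 1), with genes in rows grouped by RNA class and the 4 libraries in columns. The sgKAT6A library 2 column is the brightest for most spliceosomal rows; RNVU1-3, RNVU1-4, RNVU1-6, RNU5E-1, RNY1, RNY3, RNY4 and the vault rows are brightest in another column, and RNU6ATAC is almost equal in both libraries numbered 2.

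7SK holds the transcription elongation factor P-TEFb inactive together with HEXIM and LARP7 proteins. RN7SK was at 565 and 941 TPM in EV and 1217 and 4596 TPM in sgKAT6A, with both sgKAT6A libraries above both EV libraries. Its log2 difference was 1.70 ± 0.73 (SE; limma adjusted p = 0.784). Relative to RNU2-1 in the same library, RN7SK was at 3.55 and 1.23 in EV and 1.61 and 0.576 in sgKAT6A. Its span from EV library 1 to sgKAT6A library 2 was 8.14-fold, where that of RNU2-1 was 50.2-fold.

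7SL is the RNA of the signal recognition particle, which brings secreted and membrane proteins to the endoplasmic reticulum. It made up most of the TPM of the 44 genes, with 91.6% and 66.5% in EV and 70.0% and 56.3% in sgKAT6A. RN7SL1 was at 7195 and 4673 TPM in EV and 4608 and 17557 TPM in sgKAT6A. RN7SL2 was at 6722 and 4173 TPM in EV and 4142 and 14326 TPM in sgKAT6A. Both shared the high value in sgKAT6A library 2, but EV library 1, which was lowest for the spliceosomal RNAs, was second highest here. The log2 difference of RN7SL1 was 0.63 ± 0.72 (SE; limma adjusted p = 0.818) and turned to -0.33 without sgKAT6A library 2. The ratio of RN7SL2 to RN7SL1 stayed between 0.816 and 0.934. RN7SL3, at 8.35 and 10.5 TPM in EV and 16.05 and 43.5 TPM in sgKAT6A, had no overlap between groups. RN7SL832P stayed under 0.5 TPM.

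RMRP and RPPH1 are the catalytic-particle RNAs of RNase MRP, which acts on ribosomal RNA precursors, and RNase P, which trims transfer RNA precursors. RMRP (chr9:35657751-35658018, minus strand) was at 74.8 and 266 TPM in EV and 185 and 1344 TPM in sgKAT6A, with EV library 2 above sgKAT6A library 1. RPPH1 (chr14:20343075-20343407, minus strand) was at 20.0 and 30.9 TPM in EV and 40.7 and 167 TPM in sgKAT6A, with no overlap. Their log2 differences were 1.82 ± 1.20 and 1.69 ± 0.75 (SE; limma adjusted p = 0.784 for both). The ratio of RMRP to RPPH1 was 3.73 and 8.60 in EV and 4.55 and 8.02 in sgKAT6A, higher in both libraries numbered 2.

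Y RNAs bind the Ro60 and La proteins, and 3 of the 4 lacked the high value in sgKAT6A library 2. RNY3 was at 71.7 and 68.7 TPM in EV and 139 and 48.4 TPM in sgKAT6A, highest in sgKAT6A library 1 and lowest in sgKAT6A library 2. RNY4 was at 40.5 and 63.7 TPM in EV and 75.8 and 37.4 TPM in sgKAT6A, with the same high and low libraries. RNY1 was at 40.7 and 20.1 TPM in EV and 37.2 and 32.2 TPM in sgKAT6A, and the groups of all 3 overlapped. Their log2 differences were 0.22 ± 0.54, 0.07 ± 0.43 and 0.27 ± 0.37 (SE; limma adjusted p from 0.852 to 0.967). RNY5 followed the spliceosomal order instead, at 0 and 2.46 TPM in EV and 6.99 and 31.8 TPM in sgKAT6A, with a log2 difference of 3.12 ± 0.97 (SE; limma adjusted p = 0.784). From sgKAT6A library 1 to library 2 ratios were 0.349 for RNY3 (102 bases), 0.493 for RNY4 (96 bases) and 0.867 for RNY1 (113 bases). They were 4.55 for RNY5 and 5.09 for RNU6-1 (107 bases), and any part of RNA length was not tested. Vault RNAs, a class named after a large cytoplasmic particle, were scarcely seen. VTRNA1-1 was at 17.4 TPM and VTRNA2-1 at 2.47 TPM in sgKAT6A library 1 alone, VTRNA1-3 at 2.25 TPM in EV library 1 alone, and VTRNA1-2 at 0 in every library.

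Ratios within a library show which RNAs varied together, and they do not depend on the library's scaling. The U1 sum over RNU2-1 ranged from 0.885 to 1.23, a spread of 1.39-fold, although sgKAT6A library 2 exceeded EV library 1 by 49.7-fold for U1 and 50.2-fold for U2. The U4 sum over RNU2-1 spread 2.40-fold, RNase MRP 2.79-fold, the minor spliceosome 2.99-fold, U5 3.46-fold, U6 5.15-fold, RNase P 6.002-fold and 7SK 6.16-fold. 7SL over RNU2-1 lay outside this range, at 87.5 and 11.6 in EV and 11.6 and 4.0 in sgKAT6A, and Y over RNU2-1 spread 51.2-fold. The Pol II sum took 2.23% and 13.7% of the TPM of the 44 genes in EV and 12.4% and 28.3% in sgKAT6A.

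Between the groups, none of the 35 genes that averaged 1 TPM or more passed an adjusted p of 0.05 in limma, where 0% of all 12603 genes tested passed. At an unadjusted p of 0.05 there were 459 genes of all tested, and 5 of the 35 were higher in sgKAT6A (RNU5D-1, RNVU1-11, RNU5F-1, RNY5 and RNU4ATAC, against 1.67% of all genes tested) and 0 lower (against 1.98%). Adjusted p-values of the 35 ran from 0.784 to 0.988. In 13 of the 35 both sgKAT6A libraries lay above both EV libraries, where 14.4% of all genes tested did, and in 0 they lay below, where 23.2% did. The group difference was above 0 in 33 of the 35, against 47.4% of all genes tested, and its median was 1.85 against -0.02 (log2). A gene could pass the filter through the group or library where it is high, as did 5 that were at 0 in both EV libraries (RNU11, RNU5D-1, RNVU1-3, RNVU1-11 and VTRNA1-1). All counts over the 35 genes, here and by single library, therefore only describe them. With 2 libraries against 2, an exact permutation test of a single value cannot go below 0.333, and none is given for a sum over genes.

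The number of genes with no overlap depended on which library was left out, as did that of all genes: 14 of 35 (19.5% of all tested) without EV library 1, 22 (39.2%) without EV library 2, 27 (36.7%) without sgKAT6A library 1 and 18 (27.6%) without sgKAT6A library 2. The size of the group difference depended on single libraries too, moving by over 1.5 times in 27 of the 30 genes for which it was refitted, all but RNU5D-1, RNU5F-1 and RNY5. Without sgKAT6A library 2 it was 1.11 for RNU2-1, 0.86 for RNVU1-18, 0.74 for RN7SK, 0.39 for RMRP and 0.69 for RPPH1. Without sgKAT6A library 1 these were 4.51, 4.39, 2.65, 3.24 and 2.70.

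Single libraries stood apart in these genes. In 25 of the 35 genes sgKAT6A library 2 was at least 2-fold above each of the other 3 libraries on the log2(TPM + 1) scale, where 1.94% of all genes tested were. It was the highest library for 27 of them, where 31.4% of all genes tested had it highest. EV library 1 was at least 2-fold below each of the others in 14, where 1.02% were. Within the EV group, 18 genes were at least 2-fold higher in library 2 than in library 1 (5.17% of all genes tested) and 1 was that much lower (1.33%). Within the sgKAT6A group, 28 were that much higher in library 2 (5.56%) and 5 lower (3.05%). The myeloid receptor genes CSF1R (10.2 and 31.8, then 22.0 and 63.0 TPM) and ITGAX (6.002 and 22.3, then 15.8 and 43.4 TPM) also had EV library 1 lowest and sgKAT6A library 2 highest, and their part in the small RNA values was not tested. These 2 were picked from the 8 myeloid markers after their values were seen. SPI1 (334 and 461, then 379 and 519 TPM) and CEBPA (271 and 336, then 304 and 363 TPM) had the same lowest and highest libraries. The other markers did not: CD33, MPO and FLT3 were lowest in sgKAT6A library 2 (99.2, 49.5 and 42.9 TPM) and LYZ was highest in sgKAT6A library 1.

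**Figure D3:**
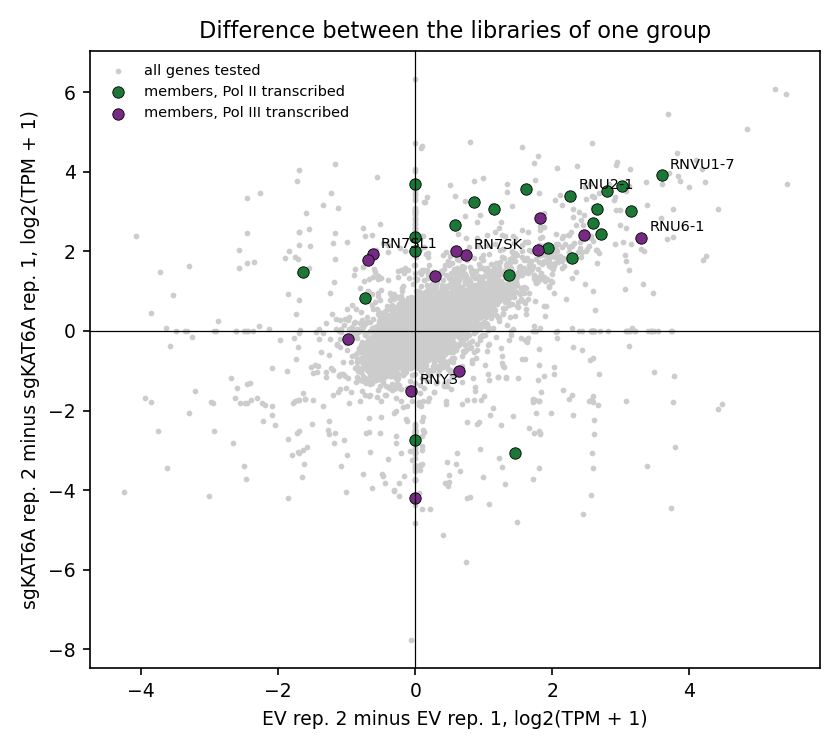
Difference between the 2 EV libraries (x axis) and between the 2 sgKAT6A libraries (y axis), library 2 minus library 1 in log2(TPM + 1), for all 12603 genes tested (grey) and for the 35 small RNA genes by polymerase. Most small RNA genes lie at the upper right, 28 of them at least 2-fold higher in sgKAT6A library 2 than in library 1, and RNY3 lies below 0 on the y axis.

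Other short or unpolyadenylated RNAs were read beside them, since the make-up of the libraries differed. The 5S ribosomal RNA, a Pol III product, was at 388 and 3924 TPM in EV and 3621 and 14569 TPM in sgKAT6A, the order of the spliceosomal RNAs. The U3, U8 and U13 snoRNAs, which have promoters of their own, summed to 207 and 2466 TPM in EV and 1720 and 21317 TPM in sgKAT6A. SNORD3A (U3) alone gave 186 and 2273, then 1583 and 20702 TPM. SNORD118 (U8), at 5.82 and 124, then 129 and 446 TPM, was also lowest in EV library 1. SNORD13 (U13), at 15.7 and 68.7, then 7.46 and 144 TPM, was instead lowest in sgKAT6A library 1. The remaining C/D snoRNAs, mostly processed from introns, summed to 4156 and 5079 TPM in EV and 5024 and 5502 TPM in sgKAT6A. The range of this sum was far narrower, and this split was chosen after the values were seen. Single genes among them moved both ways. Of 177 tested, 49 were at least 2-fold higher and 49 at least 2-fold lower in sgKAT6A library 2 than in EV library 2 on the log2(TPM + 1) scale. Over all 12603 genes tested these counts were 390 and 306. H/ACA snoRNAs were lowest in sgKAT6A library 2 (2158 and 2041, then 2255 and 1036 TPM). Genes with microRNA symbols were also lowest there, with 12.9% and 10.6% of TPM in EV and 14.6% and 9.40% in sgKAT6A. Histone genes summed to 483 and 583 TPM in EV and 523 and 911 TPM in sgKAT6A, lowest in EV library 1 and highest in sgKAT6A library 2. The scaRNA genes were highest in sgKAT6A library 2 as well (198 and 193, then 252 and 408 TPM). The 18S, 28S, 45S and 5.8S ribosomal RNAs summed to 16059 and 23783 TPM in EV and 24269 and 8393 TPM in sgKAT6A, of which RNA18SN5 gave 10401 and 13751, then 12031 and 340 TPM. Protein-coding genes held 81.2% and 81.6% of TPM in EV and 77.9% and 78.1% in sgKAT6A. The high small RNA values of sgKAT6A library 2 thus stood beside its low 18S, H/ACA and microRNA values. The part of library preparation in any of these was not tested.

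**Figure D4:**
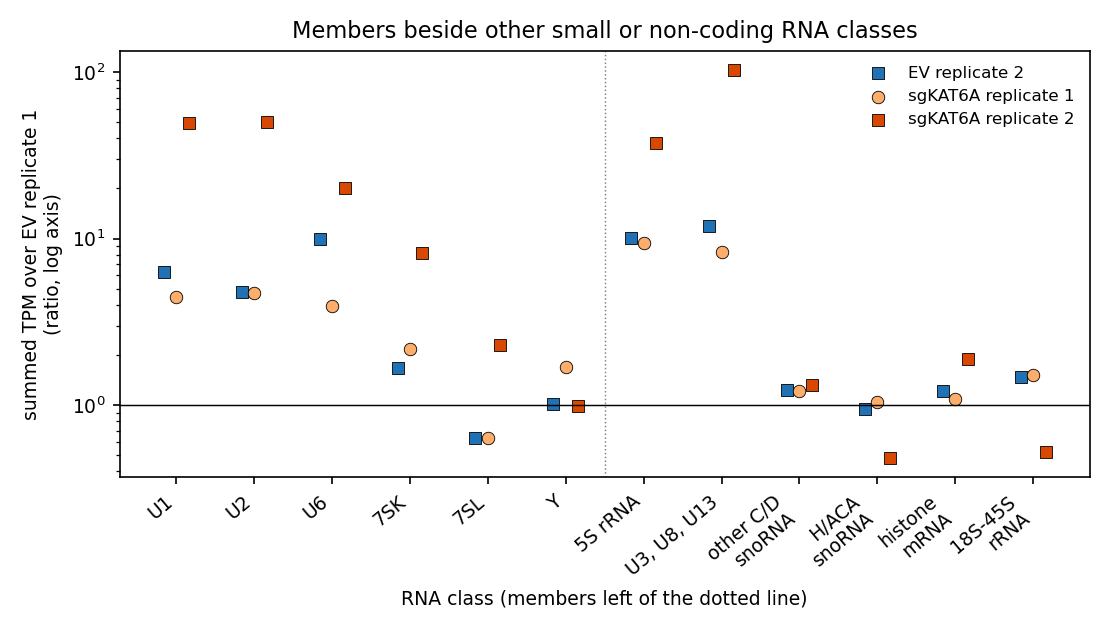
Summed TPM of each RNA class divided by its sum in EV library 1 (log axis), for EV library 2 and both sgKAT6A libraries; the horizontal line is at 1. U1, U2, U6, 5S ribosomal RNA and the U3, U8 and U13 snoRNAs lie far above the line in sgKAT6A library 2, whereas other C/D snoRNAs stay close to it and H/ACA snoRNAs and the larger ribosomal RNAs lie below it.

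The mRNAs of proteins that make, assemble or bind these RNAs were more often lower than higher in sgKAT6A, by small amounts. Across 16 lists of such proteins all 156 genes averaged 1 TPM or more, 0 passed the adjusted threshold, in 84 both sgKAT6A libraries were below both EV ones (23.2% of all genes tested) and in 7 both were above (14.4%). The median log2 difference over the 156 genes was -0.22, against -0.02 over all genes tested. In the list counts, lower and higher refer to mRNA and mean without overlap between the groups, and protein was not measured. The shares of all genes tested, 23.2% lower and 14.4% higher, stand beside the counts of every list.

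Of the Sm proteins, which form the ring on the Sm site, 7 of 8 were lower without overlap, with a list median of -0.36. SNRPD1 was at 83.3 and 77.1 TPM in EV and 62.9 and 48.6 TPM in sgKAT6A, a log2 difference of -0.53 ± 0.17 (SE; limma adjusted p = 0.784). Among the assembly and import factors, which load that ring and carry the particle into the nucleus, 12 of 16 were lower. GEMIN6, of the SMN complex, was at 23.5 and 23.8 TPM in EV and 16.8 and 9.54 TPM in sgKAT6A, a log2 difference of -0.85 ± 0.29 (SE; limma adjusted p = 0.784). Proteins of the U1 and U2 particles were lower in 11 of 15, with PHF5A of the SF3B complex at 65.0 and 59.8 TPM in EV and 48.8 and 41.2 TPM in sgKAT6A. In the list of U4, U5 and U6 particle proteins 9 of 17 were lower, with SNRNP40 at 61.5 and 60.7 TPM in EV and 49.4 and 44.2 TPM in sgKAT6A. The LSm ring and U6 processing list had 6 of 10 lower, and the U7 and histone processing list 4 of 4.

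On the side of synthesis, 6 of 13 Pol III subunits were lower and 0 higher, with a median of -0.29. POLR3D was at 33.9 and 30.5 TPM in EV and 26.6 and 19.1 TPM in sgKAT6A, and POLR3G at 6.403 and 4.08 TPM in EV and 4.09 and 1.63 TPM in sgKAT6A. Of the Pol III initiation factors and the repressor MAF1, 5 of 12 were lower and 1 higher. Of the factors at snRNA promoters, 3 of 7 were lower and 1 higher, and of the Integrator subunits, which cleave the 3′ ends of Pol II snRNAs, 7 of 14 were lower and 1 higher. In the snRNA promoter complex SNAPC1, SNAPC4 and SNAPC5 were lower, whereas SNAPC2 was highest in sgKAT6A library 2, at 22.4 TPM, and the list median was -0.06.

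Partners of single RNAs were also read. In the 7SK list 2 of 7 genes were higher and 1 lower, with CCNT1 at 10.4 and 10.2 TPM in EV and 9.65 and 7.86 TPM in sgKAT6A. The mRNAs of signal recognition particle proteins were lower in 4 of 8, of RNase P and MRP proteins in 5 of 11, and of minor spliceosome proteins in 2 of 8 with 1 higher. Over all genes tested 23.2% were lower and 14.4% higher, and the minor spliceosome counts were near these shares. RPP38, shared by RNase P and MRP, was at 17.1 and 16.1 TPM in EV and 12.5 and 9.53 TPM in sgKAT6A, a log2 difference of -0.56 ± 0.17 (SE; limma adjusted p = 0.784). RNPC3, which binds U12, was at 12.05 and 16.9 TPM in EV and 17.0 and 19.5 TPM in sgKAT6A. Of the 3 Y RNA binding proteins, TROVE2 (Ro60) was higher without overlap, at 7.97 and 8.28 TPM in EV and 9.26 and 9.49 TPM in sgKAT6A, and SSB (La) and PUF60 were lower. None of the 3 vault proteins was without overlap, and MVP, the major one, was at 14.4 and 23.8 TPM in EV and 21.5 and 29.1 TPM in sgKAT6A.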

How the data were processed

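RNA of 4 MOLM-13 libraries, 2 per group by their titles, was purified on columns and turned into libraries by a company, per the labels' protocols; the sources used here do not say if poly(A) RNA was selected, or ribosomal RNA or short fragments removed. The authors deposited TPM per gene symbol from Salmon with hg38 (per the submitters' processing notes); the sources used here name no version, annotation or filter. TPM sums to 1000000 in each library and keeps no depth, so counting error is unknown, and for RNAs this short it depends strongly on the effective length used.

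From these values, limma 3.58.1 (R 4.3.3) was fitted to log2(TPM + 1) of the 12603 genes averaging 1 TPM or more, with a mean-variance trend and Benjamini-Hochberg adjustment over all of them, threshold 0.05, two-sided; a difference on this scale understates the change of low genes. The fit was also run on simulated data in which libraries varied independently. That check does not cover deviations shared by libraries of the same number, as were present in these data. Class sums add TPM per library and are described without a test. Named genes were KAT6A, RMRP, RPPH1, RN7SK, RN7SL1, RN7SL2 and up to 4 genes of highest mean TPM per class. The rule also named up to 5 genes per direction and up to 3 per protein list with the smallest unadjusted p. RNVU1-1, RNVU1-3, RNVU1-6, RNVU1-14, SNAPC2, SPI1, CEBPA, CSF1R, ITGAX and genes of other RNA classes were named after their values were seen. Some list genes that the rule named are given only in the counts. Sequences and coordinates came from GENCODE 29; some sequences and 1 marker gene are not reported here. The members and lists were chosen with earlier results of these data known. Alternatives were pseudocounts of 0.1 and 5, a mean of at least 5 TPM, no filter, no trend, 4 rescalings, a replicate block and each library left out.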

Additional observations from a re-analysis of the deposited data

How the results depend on the processing

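Pseudocounts, filters, the trend and the rescalings changed no direction and no call. The size of the difference moved with the pseudocount for genes at 0 in both EV libraries, such as RNVU1-11 (6.57 with 0.1 and 1.66 with 5). Rescaling moved the median log2 difference of all genes by at most 0.059. With the replicate number as a block, limma passed 15 of 12603 genes (0.119%) and 8 of the 35 small RNA genes at an adjusted p of 0.05. These were RNVU1-7, RNU5F-1, RNU5B-1, RNU12 and RNVU1-14 (0.0262 each), RNY5 (0.0329), RNVU1-19 (0.0343) and RNU4-1 (0.0363), with log2 differences of 3.06, 2.31, 3.11, 2.25, 3.58, 3.12, 2.09 and 2.19. The labels give only shared numbers, with 2 per group. Deviations from the group means correlated at 0.455 across genes between libraries of the same number.

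Leaving out each library in turn moved the log2 difference of all 44 genes summed from -0.18 to 1.99, of the Pol III sum from -0.25 to 1.64, of 7SL from -0.34 to 1.52, of U6 and RNU6-1 from -0.15 to 3.15, of Y from -0.038 to 0.75 and of vault RNAs from -0.85 to 3.53. Each was below 0 without 1 library: sgKAT6A library 2 for the first 3, EV library 1 for U6, and sgKAT6A library 1 for Y and vault. Single genes that turned were RN7SL1 (-0.33 to 1.60), RN7SL2 (-0.35 to 1.44), RNU6ATAC (-1.15 to 1.31, and -1.13 without sgKAT6A library 2), RNY3 (-0.53 to 0.97), RNY4 (-0.43 to 0.57, and -0.25 without EV library 1), RNY1 (-0.23 to 0.76), RNVU1-4 (-0.53 to 0.29, and 0.25 without EV library 1), ZCRB1 (-0.30 to 0.042), HEXIM2 (-0.052 to 0.71, and -0.026 without EV library 1) and PARP4 (-0.12 to 0.18). The cause was not tested. Without 7SL, chosen after seeing the data, the sum of the other genes differed by 2.01, and by 2.03 after rescaling. Precision is limited by 2 libraries per group and by an unknown depth.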

Other observations

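Some low TPM values of these short RNAs stood in small whole-number ratios. RNVU1-6, RNVU1-14 and RNVU1-4 are each 164 bases long, and in EV library 2 they stood at 1.75, 5.25 and 10.5 TPM, which are 1, 3 and 6 times the lowest within a tolerance of 0.001. RNVU1-1, also 164 bases, did not share these steps, at 7.08 TPM or 4.043 times the lowest. In sgKAT6A library 1 the values were 7.44, 9.30 and 9.30 TPM, the last pair 1.25 times the first. Of the 44 genes, 26 and 30 were above 0 in EV libraries 1 and 2, and 33 in each sgKAT6A library.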
